A study of Mus musculus with 6 samples.

Results

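The receptors for interleukin (IL)-6, IL-21 and IL-27 and the kinases, transcription factor and inhibitors behind them were followed as 10 genes in mouse follicular helper T (Tfh) cells: Il6ra, Il6st, Il21r, Il27ra, Jak1, Jak2, Tyk2, Stat3, Socs1 and Socs3. They were chosen by gene name, and all 10 were found, with 1 row each, among the 47729 genes listed. RNA came from spleen cells that carried CD4 and TCRb and stained high for PD1 and CXCR5, taken from mice that had been given NP-OVA, a hapten coupled to ovalbumin, into the peritoneum. There were 3 samples from double knockout mice, labelled Cbl-/- Cbl-b-/-, which lack the ubiquitin ligases CBL and CBL-B, and 3 from controls, labelled wt ctrl. Both groups received the antigen. The question of the series is what an axis from the costimulator ICOS to these ligases does to Tfh development. The labels give no age, sex or strain of the mice and no promoter or Cre behind the deletion.

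IL-6 binds IL-6RA, and the pair then recruits the signalling chain gp130, which Il6st encodes. IL-27 signals through IL-27RA with the same gp130 chain, whereas IL-21 signals through IL-21R with the common gamma chain. The JAK kinases bound to these receptors phosphorylate STAT3, which enters the nucleus and activates its targets, among them Socs3. SOCS3 then binds gp130 and blocks the kinases, which closes a negative feedback loop. In CD4 T cells IL-6 and IL-21 are known to support Bcl6 and the Tfh fate.

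The RefSeq upstream regions (GRCm38.p6) are printed for the gene that passed the test, for both others whose groups did not overlap, and for Socs1 as the paralogue of Socs3. Each covers the 250 bases before the start of the gene in the RefSeq table, 5′ to 3′ on the strand of the gene. For Il6st, Stat3 and Socs1 the GENCODE gene starts at the same base. For Socs3 the GENCODE gene begins 681 bases further upstream, so the printed stretch lies inside its span. Capitals mark matches to TTCNNNGAA, the core motif of STAT binding sites, which reads the same on both strands. Overlapping matches were allowed.
Socs3, chr11:117969367-117969616, minus strand: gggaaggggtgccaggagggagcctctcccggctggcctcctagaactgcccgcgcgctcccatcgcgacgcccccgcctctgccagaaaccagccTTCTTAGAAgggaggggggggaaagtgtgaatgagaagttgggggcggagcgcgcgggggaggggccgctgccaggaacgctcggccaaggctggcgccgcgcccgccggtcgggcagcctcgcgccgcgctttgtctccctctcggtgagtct
Il6st, chr13:112463820-112464069, plus strand: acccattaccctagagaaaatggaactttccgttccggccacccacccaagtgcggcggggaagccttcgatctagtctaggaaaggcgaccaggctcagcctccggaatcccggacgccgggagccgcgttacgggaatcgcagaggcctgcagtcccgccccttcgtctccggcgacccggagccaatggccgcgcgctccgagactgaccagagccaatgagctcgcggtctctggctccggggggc
Stat3, chr11:100939541-100939790, minus strand: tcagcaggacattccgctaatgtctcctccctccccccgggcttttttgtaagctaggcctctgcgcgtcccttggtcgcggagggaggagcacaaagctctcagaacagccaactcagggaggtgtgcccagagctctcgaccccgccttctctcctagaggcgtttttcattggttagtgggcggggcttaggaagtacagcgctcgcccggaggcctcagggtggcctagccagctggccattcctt
Socs1, chr16:10785537-10785786, minus strand: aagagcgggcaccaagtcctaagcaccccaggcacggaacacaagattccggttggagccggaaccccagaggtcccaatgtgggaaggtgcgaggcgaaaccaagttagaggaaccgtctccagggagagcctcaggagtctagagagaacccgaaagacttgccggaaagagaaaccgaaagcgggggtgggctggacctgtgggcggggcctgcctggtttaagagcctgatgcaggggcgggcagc
Of the 10 genes, 9 had an entry in the promoter table, and Il27ra is named only. Socs3 alone of those 9 held a match, TTCTTAGAA, whose first base lies 154 bases before the RefSeq table's start. By GENCODE it lies within the Socs3 gene and overlaps no annotated exon of it. Such a match was present in 7.02% of 32851 upstream regions of the same length, and it describes letters, not binding.

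The libraries held 23392254 to 38368885 reads assigned to genes, and the values used are normalised counts, that is, reads divided by 1 size factor per library. Cbl stood at 3262, 3856 and 2221 in the double knockout and 12417, 12945 and 8614 in the control (log2 fold change -1.88 ± 0.23, SE; limma adjusted p = 0.00888). Cblb stood at 7459, 7881 and 8054 against 8943, 10037 and 6955, a whole-gene total that does not check a deletion of part of the gene. The 8 markers of Tfh cells (Cd4, Cd3e, Trbc1, Trbc2, Cxcr5, Pdcd1, Icos and Bcl6) were all abundant and none passed the test. At an unadjusted p below 0.05, 1 was higher and 3 were lower, against 9.5% and 7.47% of all genes. Cd4, Trbc1 and Trbc2 lay below the control in all double knockout libraries and Cd3e above it, a separation seen in 23.6% of all genes tested. Cxcr5, Pdcd1, Icos and Bcl6 overlapped between the groups. The summed level of the 8 was 214290 to 240160 in the double knockout and 240880 to 253330 in the control, and Cd4 made up 27.0% to 34.3% of it. Xist stood at 12769 to 18101 in the double knockout and 12.9 to 970 in the control, and the Y-linked Ddx3y at 0 to 7.16 against 2812 to 3721, so genotype and sex cannot be told apart. All 10 genes are autosomal. Bulk values cannot tell fewer cells of a type from less RNA per cell.

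Socs3 rose and Il6st was lower without passing the test, while most of the other receptor and kinase genes lay close to their control levels. All 10 genes passed the filter on low values. The limma test on log2(value + 1), adjusted over all 13602 genes tested, called 1 of the 10 higher and 0 lower. The background was 1.85% of all genes called higher and 1.07% called lower. At an unadjusted p below 0.05, 2 of the 10 were higher (Socs3 and Stat3) and 1 lower (Il6st), against 9.5% and 7.47% of all genes. edgeR called 1 higher and 0 lower (1.9% and 1.08% of all genes). DESeq2 called 2 higher and 1 lower (4.97% and 3.27%). By the authors' deposited table, 1 was higher and 1 lower (4.1% and 2.52%). The groups did not overlap for 3 of the 10 genes, Socs3, Stat3 and Il6st, against 23.6% of all genes tested. The median log2 fold change over the 10 was -0.03, against -0.0011 over all genes tested.

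**Figure D1:**
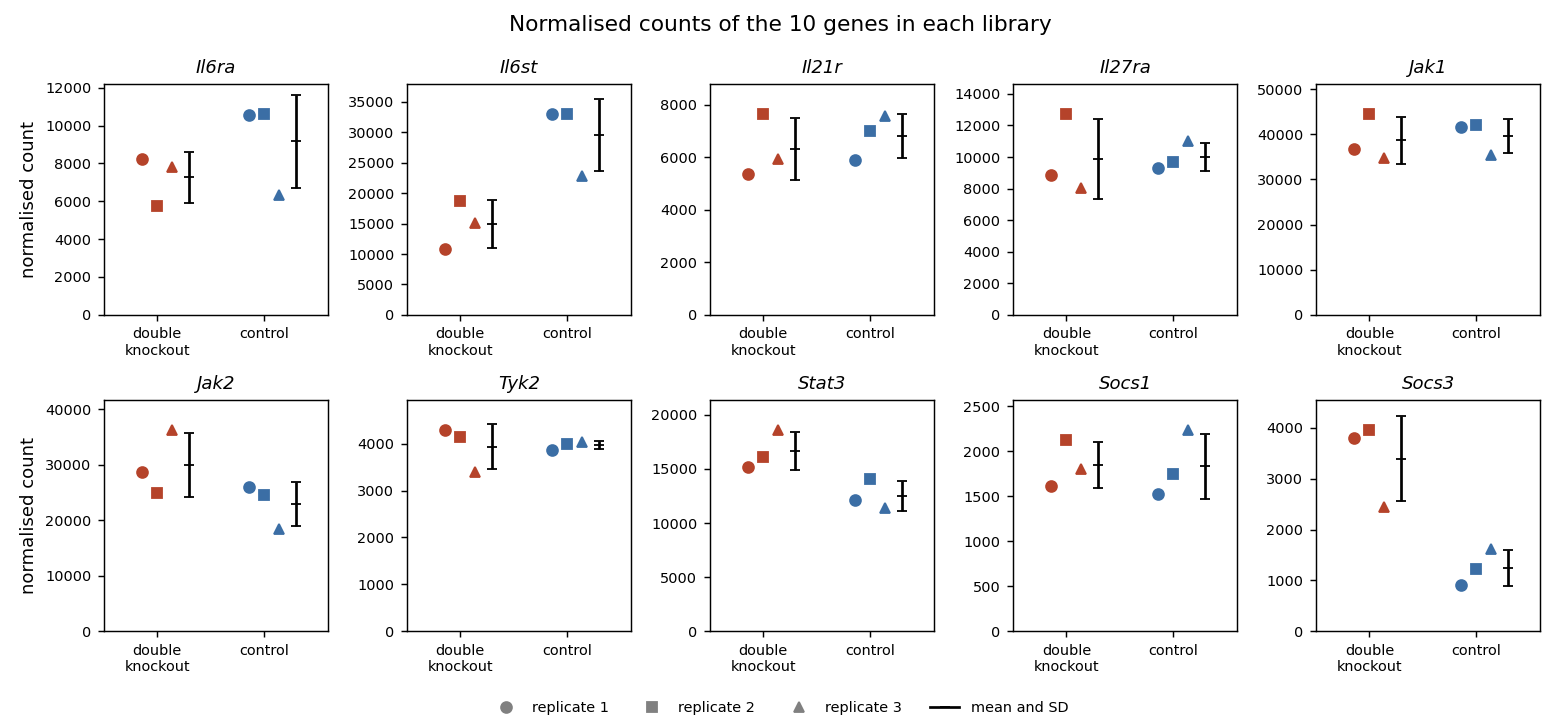
Normalised counts (vertical axes, from 0) of the 10 genes in each library, double knockout on the left and control on the right of each panel. Symbols are libraries and bars the mean with the SD over 3 libraries; Socs3, Stat3 and Il6st are the panels in which the groups do not overlap.

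Socs3 (ENSMUSG00000053113, GRCm38 chromosome 11, 117966079 to 117970047) encodes the feedback inhibitor that docks on gp130. It had 3792, 3949 and 2434 normalised counts in double knockout replicates 1 to 3, against 901, 1229 and 1610 in control replicates 1 to 3. All 3 double knockout libraries exceeded all 3 controls, and the closest pair was double knockout replicate 3 and control replicate 3. The log2 fold change was 1.45 ± 0.25 (SE; 95% confidence interval 0.88 to 2.02), which is 2.73-fold, with a limma adjusted p of 0.0257. The limma call was lost without double knockout replicate 1 (adjusted p = 0.131), without control replicate 1 (0.0905), without control replicate 2 (0.0921) and with the replicate number as a block (0.0643), while the log2 fold change stayed between 1.24 and 1.75 in all of these settings and the other alternatives tried.

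Socs1 (ENSMUSG00000038037, chromosome 16, 10782240 to 10785536), the paralogue that inhibits JAK kinases directly and is best known for restraining interferon signalling, did not follow. Its values were 1613, 2119 and 1807 in the double knockout, against 1527, 1746 and 2232 in the control. These ranges overlapped almost fully. The log2 fold change was 0.02 ± 0.16, within an interval (95%) of -0.36 to 0.39, and the limma adjusted p was 0.974. Within each library, the log2 ratio of Socs3 to Socs1 was 1.23, 0.90 and 0.43 in the double knockout, against -0.76, -0.51 and -0.47 in the control. The ratio was thus above 0 in every double knockout library and below 0 in every control library. The difference of 1.43 had an exact two-sided permutation p of 0.1, the smallest that 3 against 3 samples can give.

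Il6st (ENSMUSG00000021756, chromosome 13, 112464070 to 112510086) encodes gp130, the chain shared by the IL-6 and IL-27 receptors. It had 10867, 18687 and 15154 normalised counts in the double knockout, against 33061, 32973 and 22784 in the control. All double knockout libraries lay below all controls, with double knockout replicate 2 and control replicate 3 the closest. On average the level in the double knockout was 0.499 of that in the control. This is a log2 fold change of -1.004 ± 0.22 (SE), and its 95% confidence interval ran from -1.52 to -0.49. The limma adjusted p of 0.0569 did not pass, nor did edgeR (0.0601). It passed with DESeq2 (0.000431), in the authors' deposited table (0.000331), with library weights (0.0051), with no filter (0.0487) and without double knockout replicate 2 (0.0277). Totals per gene do not separate transcripts for membrane-bound from those for soluble forms of gp130.

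Il6ra (ENSMUSG00000027947, chromosome 3, 89864059 to 89913196), the chain that binds IL-6, had 8246, 5734 and 7809 against 10548, 10621 and 6308. The controls were split, with control replicate 3 below 2 of the 3 double knockout libraries, and the difference did not pass (-0.31 ± 0.23, 95% confidence interval -0.83 to 0.21, limma adjusted p = 0.552). The log2 ratio of Il6ra to Il6st was -0.40, -1.70 and -0.96 in the double knockout and -1.65, -1.63 and -1.85 in the control. The controls lay close together, and double knockout replicate 2 fell among them. The ratio differed by 0.69 with an exact two-sided permutation p of 0.3, and by 0.38 without double knockout replicate 1 and 1.03 without replicate 2.

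The receptor chains for IL-21 and IL-27 showed no difference beyond the spread between libraries. Il21r (ENSMUSG00000030745, chromosome 7, 125603429 to 125633570) had 5355, 7656 and 5949 against 5895, 7007 and 7557 (log2 fold change -0.12 ± 0.15, limma adjusted p = 0.776). Its 95% confidence interval ran from -0.47 to 0.24, so a level below 0.72 of that in the control lies outside it. Il27ra (ENSMUSG00000005465, chromosome 8, 84030294 to 84042589) had 8853, 12738 and 8007 against 9279, 9698 and 11008 (-0.04 ± 0.17, 95% confidence interval -0.44 to 0.35, adjusted p = 0.939). Double knockout replicate 2 was the highest library for both receptor genes, and the other double knockout libraries were the lowest for Il27ra.

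Among Jak1, Jak2 and Tyk2, the widest difference was that of Jak2, and none passed. Jak2 (ENSMUSG00000024789, chromosome 19, 29251828 to 29313080), which binds gp130 and the receptors of many other cytokines, had 28680, 24863 and 36188 against 25957, 24530 and 18481. The groups overlapped through double knockout replicate 2 and control replicate 1 (0.38 ± 0.18, 95% confidence interval -0.04 to 0.79, limma adjusted p = 0.343). Jak1 (ENSMUSG00000028530, chromosome 4, 101152367 to 101265282), the main kinase of gp130 and of common gamma chain receptors, had 36832, 44560 and 34678 against 41601, 42005 and 35392. Tyk2 (ENSMUSG00000032175, chromosome 9, 21104068 to 21131243), which serves gp130 and interferon receptors, had 4282, 4135 and 3392 against 3865, 3990 and 4039. Both genes overlapped between the groups over most of their range. The log2 fold changes were -0.04 ± 0.14 for Jak1 and -0.02 ± 0.11 for Tyk2, and both signs turned under some settings. Their 95% confidence intervals ran from -0.36 to 0.28 for Jak1 and from -0.27 to 0.24 for Tyk2.

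Stat3 (ENSMUSG00000004040, chromosome 11, 100885098 to 100939540), the transcription factor on which these receptors converge, had 15208, 16118 and 18555 against 12111, 14021 and 11344. Every double knockout library was above every control, by 1.33-fold on average (log2 fold change 0.41 ± 0.12, 95% confidence interval 0.13 to 0.70). The limma adjusted p was 0.127 and did not pass, nor did the authors' deposited table (0.0713), while DESeq2 called it (0.0464). Stat3 shares 72 bases of exon with Stat5a on the opposite strand, 0.756% of its exon length, and Stat5a showed 4047, 4563 and 5698 against 4047, 4630 and 4665. Exon overlaps with antisense transcripts were 8.07% of the length for Tyk2 and 2.8% for Il6ra, whose partners averaged 73.0 and 85.3 normalised counts.

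**Figure D2:**
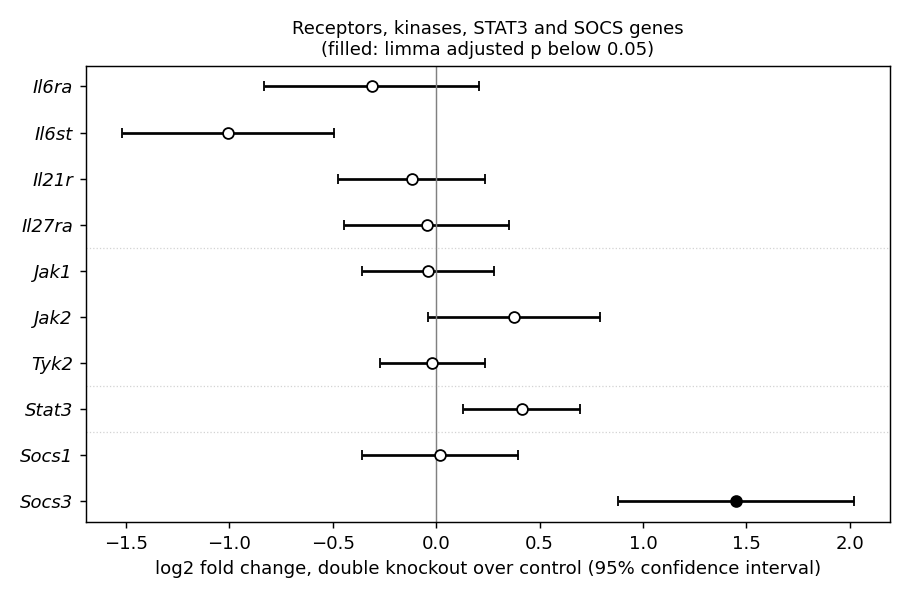
Log2 fold changes, double knockout over control (horizontal axis), of the 10 genes with 95% confidence intervals from limma, ordered as receptors, kinases, Stat3 and SOCS genes from top to bottom. The filled point is Socs3 at 1.45, and the intervals of Il6st and Stat3 also leave out 0 although their adjusted p did not pass.

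**Figure D3:**
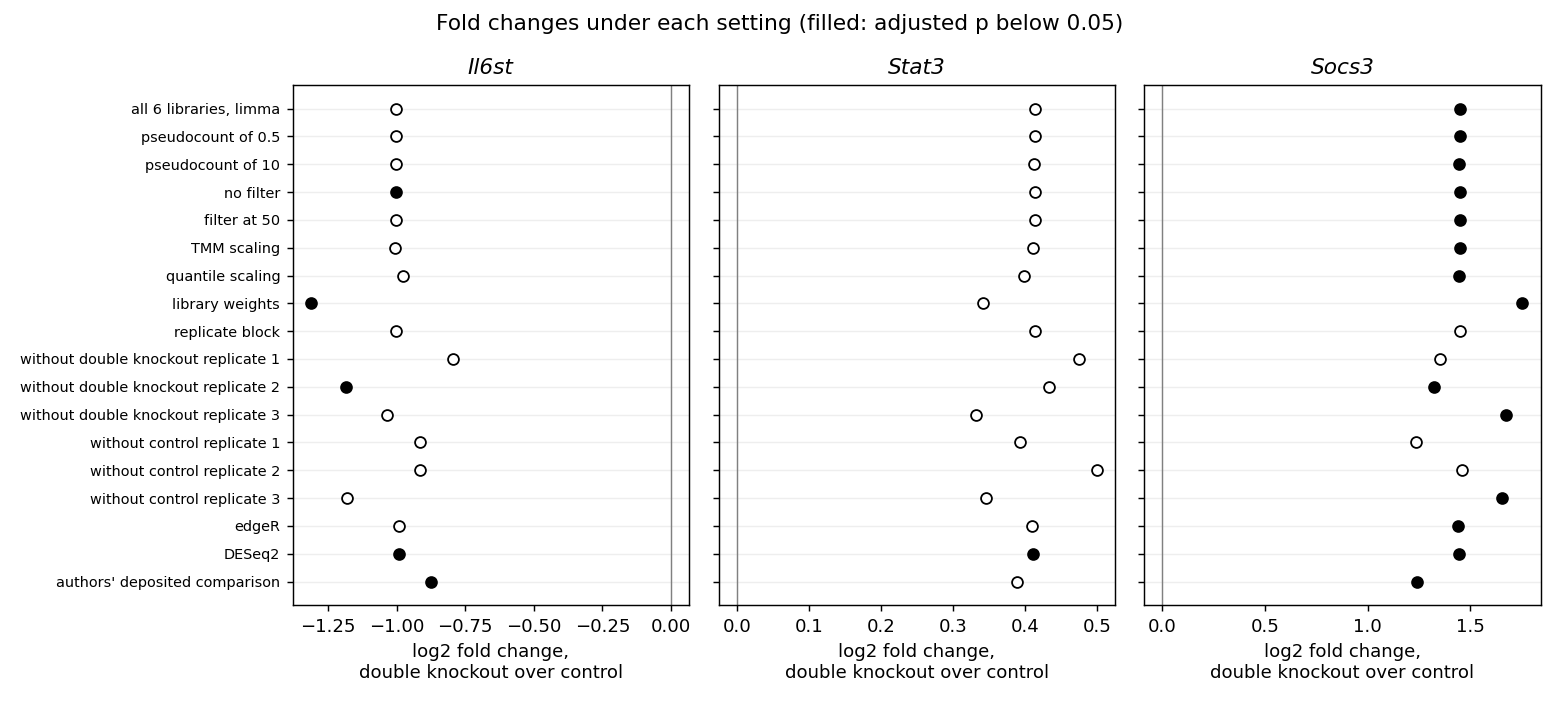
Log2 fold changes (horizontal axes, double knockout over control) of Il6st, Stat3 and Socs3 under each setting, which are listed down the left side. Filled points have an adjusted p below 0.05; each gene keeps its sign throughout, with Il6st between -1.31 and -0.79 and Socs3 between 1.24 and 1.75.

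The order of the genes by level was compared per kilobase of exon. In the double knockout Jak2 (5946 ± 1145 normalised counts per kilobase, SD, n = 3) and Jak1 (5354 ± 719) led, followed by Il27ra (2823 ± 722), Il21r (1901 ± 359), Stat3 (1745 ± 182), Il6st (1343 ± 353), Socs3 (1173 ± 288), Il6ra (840 ± 155), Socs1 (635 ± 87.8) and Tyk2 (573 ± 69.5). In the control Jak1 (5489 ± 513) and Jak2 (4570 ± 789) led, followed by Il27ra (2860 ± 258), Il6st (2667 ± 532), Il21r (2052 ± 255), Stat3 (1311 ± 145), Il6ra (1060 ± 286), Socs1 (631 ± 124), Tyk2 (578 ± 13.1) and Socs3 (431 ± 123). Socs3 was thus in position 7 of 10 in the double knockout and in position 10 in the control, and Il6st in positions 6 and 4. Between neighbours in these orders, the libraries were apart for Jak1 over Il27ra in the double knockout. They were apart for Jak2 over Il27ra, Il21r over Stat3 and Tyk2 over Socs3 in the control, and all other neighbours overlapped.

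Every one of the 10 genes was sequenced deeply, with 879 to 54383 reads per library. Counting error at the lowest of these depths was 0.571% to 3.37% of the value. The spread between libraries of a group was 2.26% to 28.4% of the mean, and the narrowest, Tyk2 in the control, was close to the counting error of 1.85% for that gene. For the other values the samples differed by more than depth alone gives. Double knockout replicate 2 was the highest library for 4 of the 10 genes, and double knockout replicate 3 the lowest for 3.

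Genes around the receptors were counted in lists that were chosen with earlier results of these data known. Of 15 ligand genes, 7 fell below the filter, among them Il6 (12.3, 11.5 and 4.47 against 5.13, 0 and 0.918) and Il27 (0 to 2.46 against 0 to 4.11). Both stayed at or below 12.3 normalised counts in all 6 libraries. Il21 was abundant in both groups, at 12229, 10414 and 18644 against 15579, 14184 and 10161. None of the 8 ligand genes tested passed with limma, edgeR, DESeq2 or in the authors' deposited table (median log2 fold change 0.03). With limma, 1.85% of all genes tested were called higher and 1.07% lower. At an unadjusted p below 0.05, 0 of the 8 were higher and 1 lower, against 9.5% and 7.47% of all genes. The smallest p belonged to Lif, which signals through gp130, with 862, 646 and 1408 against 1569, 1930 and 1215, followed by Ifng with 336, 218 and 122 against 193, 148 and 70.7.

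Of 14 partner receptors, 11 were tested, and 1 rose while 0 fell (limma, against 1.85% and 1.07% of all genes tested; median log2 fold change 0.14). At an unadjusted p below 0.05, 4 were higher and 2 lower (9.5% and 7.47% of all genes). edgeR called 1 and 0, DESeq2 called 3 and 1 (4.97% and 3.27%), and 2 and 1 were called in the authors' deposited table (4.1% and 2.52%). Il10ra, which encodes the IL-10 binding chain of a receptor that also signals through STAT3, had 3963, 4217 and 2542 against 1262, 1384 and 898. All double knockout libraries were above all controls (log2 fold change 1.59 ± 0.23, limma adjusted p = 0.0149), and the call was lost without double knockout replicate 1 (0.0776) or control replicate 1 (0.0662). Il2rg, the common gamma chain that pairs with IL-21R, had 12203, 14376 and 11273 against 10573, 10116 and 13752 and did not pass (0.14 ± 0.15). Lifr, Osmr and Cntfr, whose products also form receptors with gp130, stayed at or below 6.15 normalised counts in every library.

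The other JAK and STAT genes reported here, 7 in all, had 1 that rose and 0 that fell (limma, against 1.85% and 1.07% of all genes tested; median log2 fold change 0.09). Of the 7, 3 were higher and 2 lower at an unadjusted p below 0.05 (9.5% and 7.47% of all genes). The calls numbered 1 and 0 with edgeR, 3 and 2 with DESeq2 (4.97% and 3.27%) and 2 and 1 in the authors' deposited table (4.1% and 2.52%). Stat2, a signal transducer of type I interferon receptors, had 2551, 2538 and 2252 in the double knockout against 1635, 1765 and 1528 in the control (0.57 ± 0.10, limma adjusted p = 0.0307). The groups were fully apart. Of the fits that left out 1 library, Stat2 kept its call only without double knockout replicate 3 (adjusted p = 0.0368). Jak3 had 12682, 12560 and 11528 against 9087, 9554 and 9118, also apart, but did not pass (0.40 ± 0.09, limma adjusted p = 0.057). Of the 7 genes, 3 lay above and 2 below the control in all double knockout libraries, a separation seen in 23.6% of all genes tested.

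None of 16 other SOCS genes and signalling inhibitors passed with limma or edgeR (median log2 fold change 0.04), while 4 were higher and 2 lower at an unadjusted p below 0.05 (9.5% and 7.47% of all genes). Both DESeq2 (4.97% and 3.27% of all genes) and the authors' deposited table (4.1% and 2.52%) called 3 higher and 1 lower. The smallest p belonged to Ptpn1, a tyrosine phosphatase that acts on JAK2 and TYK2, with 20805, 21009 and 28123 against 15188, 16890 and 14897. Next was Socs2, an inhibitor of growth hormone signalling, at 23.6, 51.6 and 15.2 against 4.1, 6.85 and 4.59. Ptpn1 was higher in all 3 double knockout libraries (limma adjusted p = 0.0795). All 3 Socs2 controls lay below the filter value of 10, so Socs2 was tested only through the double knockout, where it is high. Its direction was thus set by the filter. Neither its limma adjusted p of 0.0822 nor its place among the genes counted as higher is support for a rise. Ptpn1 passed with DESeq2 (0.00618), in the authors' deposited table (0.00911), with library weights (0.0277) and with quantile scaling (0.0447). Under the limit just given, Socs2 passed with DESeq2 (0.0192), in the authors' deposited table (0.0211) and with library weights (0.0227).

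Of 21 genes described as STAT3 targets, 2 rose, 0 fell and 19 did not pass (limma, against 1.85% and 1.07% of all genes tested; median log2 fold change 0.10). At an unadjusted p below 0.05, 6 were higher and 0 lower (9.5% and 7.47% of all genes). The numbers called were 2 and 0 with edgeR, 6 and 0 with DESeq2 (4.97% and 3.27%) and 5 and 0 in the authors' deposited table (4.1% and 2.52%). Those that rose were Prdm1, which encodes the BCL6 antagonist BLIMP1 (285, 592 and 404 against 39.0, 90.5 and 60.6; adjusted p = 0.0127), and the aryl hydrocarbon receptor gene Ahr (385, 315 and 198 against 67.7, 108 and 92.8; adjusted p = 0.0276). Their limma calls were lost without control replicate 1 (0.0504 for Prdm1 and 0.11 for Ahr). Ahr also lost its call without double knockout replicate 1 (0.135), control replicate 2 (0.0708) or control replicate 3 (0.0687) and with the replicate block (0.0593). Bcl6, Maf, Batf and Junb, which Tfh cells express at high levels, did not pass, with log2 fold changes from -0.09 to 0.18. Hif1a had 47240, 37999 and 73105 against 32496, 35289 and 22553 (0.78 ± 0.26, adjusted p = 0.17), above the control in all 3 double knockout libraries.

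**Figure D4:**
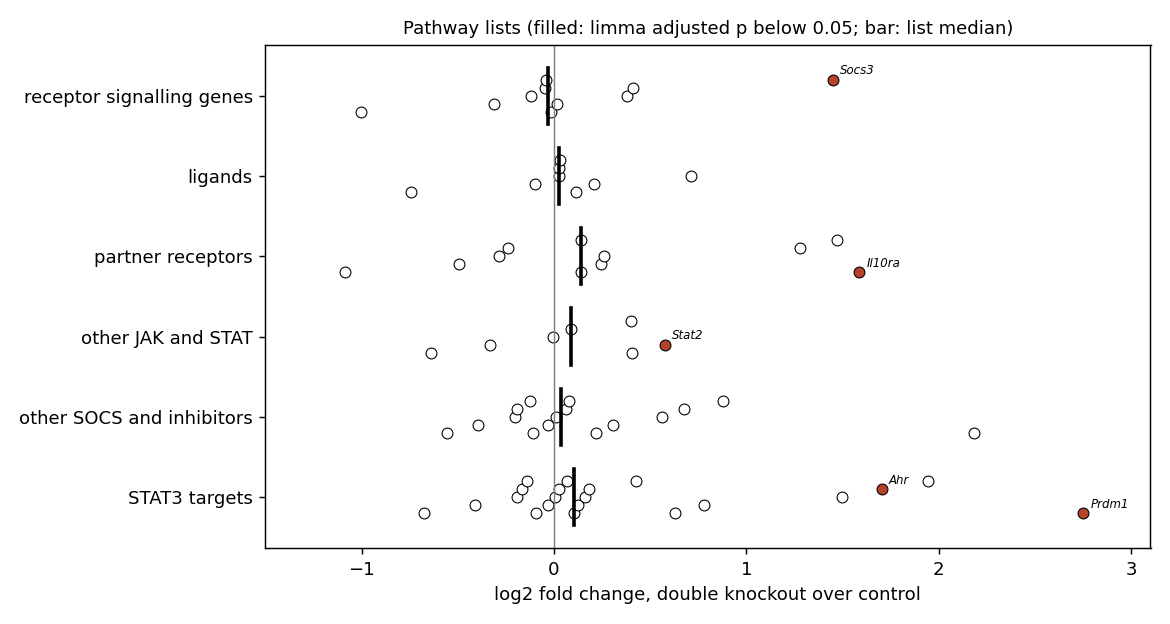
Log2 fold changes, double knockout over control (horizontal axis), of every gene tested in the receptor signalling set and in each pathway list, with black bars at list medians. Filled points passed the limma test and were higher; Socs3, Il10ra, Stat2, Ahr and Prdm1 are named.

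The genes with profiles most like that of Socs3 were sought among 10020 genes with a mean of at least 50, by the root mean square difference of log2(value + 1) over the 6 libraries after centring. Sorl1, a sorting receptor, was nearest at 0.12, with 2919, 3122 and 2405 normalised counts against 729, 1049 and 1404. Id2, an inhibitor of E proteins, followed at 0.19, and Osbpl3, a lipid-binding protein gene, at 0.22. They were chosen on these 6 libraries for following Socs3, so their own difference between the groups is part of that choice and is not given as a test.

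Markers of other cell types moved with genotype in part. The summed level of 8 gamma-delta and NKT cell markers was 5691 to 12559 in the double knockout and 945 to 1142 in the control. Trdc alone passed the test and made up 86.0% to 96.0% of that sum, and Zbtb16 and Il23r were also above the control in all double knockout libraries. The gamma chain genes Tcrg-C1, Tcrg-C2 and Tcrg-C4 overlapped between the groups, as did Sox13 and Blk. Tcrg-C1 had 28.7, 62.3 and 12.5 against 15.4, 19.2 and 10.1. The sum of 8 CD8 T and NK cell markers was 1206 to 2368 against 2932 to 3592, and Klrb1c made up 25.8% to 75.8% of it. Of that list, Cd8b1 and Klrb1c were called lower, while Nkg7 had 651, 489 and 142 against 180.5, 166 and 83.6 and Klrd1 12.3, 26.2 and 1.79 against 0, 5.48 and 5.51. The defining Cd8a and Ncr1 stayed below 10 in every library.

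The summed levels of the B cell, myeloid and regulatory T cell lists overlapped between the groups, but single markers lay apart without passing the test. In the B cell and myeloid lists 1 gene carried most of the sum. Of 7 B cell markers (880 to 1880 against 1017 to 1558), Pax5 made up 85.0% to 96.0%. Ms4a1 had 6.15, 5.74 and 1.79 against 67.7, 17.8 and 29.4 (limma adjusted p = 0.0648). Its double knockout values all lay below the filter value of 10, so it was tested only through the control and its direction was set by the filter. Cd79a had 12.3, 22.9 and 7.16 against 53.3, 27.4 and 45.9 (limma adjusted p = 0.145). Cd79a was thus lower in all double knockout libraries, while Cd79b, Pax5, Blk, Fcer2a and Cr2 overlapped between the groups. Blk had 136, 29.5 and 42.1 against 32.8, 2.74 and 24.8. Of 10 myeloid markers (1389 to 1706 against 1387 to 1710), Cst3 made up 84.6% to 92.6%. Lyz2 (15.2 to 38.5 against 42.2 to 66.7) and Adgre1 (8.05 to 10.7 against 12.3 to 26.7) were below the control in all double knockout libraries. They were 2 of the 7 myeloid markers tested, and 23.6% of all genes tested lay apart between the groups. Adgre1 reached the filter value of 10 in only 1 double knockout library. It was thus tested through its controls, and its direction is no support for a fall. Cd14 had at most 4.1 in any library. All other myeloid markers overlapped between the groups, Csf1r and Fcgr3 among them. Itgax had 8.2, 14.7 and 6.26 against 3.08, 9.59 and 1.84.

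Of 6 regulatory T cell markers (16188 to 26273 against 17988 to 24577), Ikzf2 made up 42.3% to 70.9%. None passed the test, with 3 higher and 1 lower at an unadjusted p below 0.05 (9.5% and 7.47% of all genes). Ikzf2 had 7951, 11115 and 12291 against 17427, 16302 and 12353 (limma adjusted p = 0.176), below the control throughout. Ctla4 (5510 to 9847 against 2708 to 4618) and Lrrc32 (33.1 to 378 against 15.4 to 30.2) were above it throughout, and Il2ra had 404, 832 and 243 against 122, 259 and 84.5. Foxp3 stood at 5451 in double knockout replicate 2 and at 149.6 and 295 in the other double knockout libraries, against 286 to 768 in the control. Without that library the Socs3 log2 fold change was 1.32 (limma adjusted p = 0.0396), and 3 of the 6 fits that left out 1 library kept the Socs3 call. Such a fit is no test of regulatory T cell content. The part of the transcripts of these other cell types in the Socs3 and Il6st values was not tested.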

How the data were processed

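Each deposited value is a normalised signal: the authors scaled the reads of a gene by the size factor of its library, as the file's title and values show. Tools in the submitters' processing notes are DESeq2 1.12.3, featureCounts 1.4.6 and STAR 2.5.1b, and the build is GRCm38. No source used here states the annotation or the strand setting, so reads of antisense partners may be mixed. The authors' deposited log2 fold changes, test statistic (score) and p-values served only as an alternative. All values were whole multiples of the smallest (100% within 0.001 of a read), which gave back whole reads for edgeR 4.0.16 and DESeq2 1.42.0.

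Genes with a value of at least 10 in at least 3 libraries were kept (13602). The main test was limma-trend 3.58.1 (R 4.3.3) on log2(value + 1), genotype as the only term, two-sided, Benjamini-Hochberg adjusted over all genes kept, threshold 0.05. It was tested on simulated data with 1 dispersion for all genes. Real genes and libraries differ in spread, so that run does not give the error rate in these data. Fold changes on this scale understate those of low genes. The labels do not say that samples came from separate mice, so p-values measure the spread between samples. Named were the 10 genes, the targeted genes, the genes of each pathway list past the threshold (or the 2 of smallest p) and the 3 nearest profiles; other names were chosen after their values were seen. The members and lists were chosen with earlier results of these data known. Some listed genes and 1 list are not reported here. Exon lengths and coordinates come from GENCODE M21 (GRCm38), matched by Ensembl identifier. Plots and permutation tests used Python 3.11.15, scipy 1.17.1 and matplotlib 3.10.9. Alternatives were other tests, pseudocounts (0.5, 10), filters (none, 50), scaling by TMM or quantiles, the replicate number as a block, library weights and leaving out each library.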

Additional observations from a re-analysis of the deposited data

How the results depend on the processing

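The count of 398 genes past the threshold became 1368 with library weights, 1098 with DESeq2, 993 in the authors' deposited table, 265 with the replicate block, and 58 to 498 in the fits that left out 1 library. The higher members numbered 0 with the replicate block, 2 with DESeq2 and 0 to 1 with a library left out. The lower members numbered 1 with no filter, library weights, DESeq2 and the authors' deposited table, and 0 to 1 with a library left out. Signs turned for Jak1 with quantile scaling (0.0253), for Tyk2 with library weights (0.064), and with libraries left out for Il27ra (-0.244 to 0.0912), Socs1 (-0.106 to 0.168), Jak1 (-0.146 to 0.0348) and Tyk2 (-0.082 to 0.086). The causes were not tested. Same-numbered libraries deviated together only weakly (correlations of 0.074, 0.054 and 0.092, each library correlating best with its own number, a hint from the data and not the design), so the numbers were not taken as pairs. In that paired form the ratio of Socs3 to Socs1 differed by 1.43 (exact sign-flip p = 0.25) and that of Il6ra to Il6st by 0.69 (p = 0.5). Both ratios kept their sign throughout, at 1.24 to 1.64 and 0.38 to 1.03 with a library left out.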
